A study of Mus musculus with 2 samples.

Results

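The open chromatin of 10 genes of the ETS family of transcription factors was mapped in mouse regulatory T (Treg) cells that lacked or carried transketolase (TKT), which acts in the non-oxidative pentose phosphate pathway. The genes were Ets1, Ets2, Fli1, Elf1, Elf2, Elf4, Elk3, Elk4, Etv6 and Gabpa, and every peak whose assigned gene carried 1 of these symbols was taken. The 10 genes are among 19459 symbols in the deposited lists. They held 26 of 19680 peaks in the TKT cKO library and 42 of 34440 peaks in the WT library, all of them at 9 of the 10 genes, since no peak bore the symbol Gabpa. Both libraries came from CD4+CD25+YFP+ cells sorted from spleen and lymph node of C57BL/6 females aged 7 weeks, with 50000 cells per reaction. The cKO mice were Foxp3cre/+ TKTfl/fl and the WT mice Foxp3cre/+, so Cre under the control of Foxp3 was present in both groups. Foxp3 lies on the X chromosome, so in such females only the cells that use the Cre allele delete the floxed gene, and the YFP gate selects them. The number of animals behind each library is not given in the labels.

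ETS factors share a winged-helix DNA-binding domain that recognises a GGAA core, usually within a longer purine-rich site. Most members work with partners, such as RUNX proteins for Ets1, SRF for the Elk factors and the GABP beta subunits for Gabpa, and several are phosphorylated by MAP kinases. In T cells, Ets1 and Elf1 are known as regulators of Il2ra and of T cell receptor genes, and in mice Ets1 supports stable Foxp3 expression.

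The assay was ATAC-seq, in which the Tn5 transposase inserts adapters into accessible DNA. With 1 library per genotype, the 2 libraries are compared below and no difference has a replicate check or a p-value. Read totals were not used here, so depth is unknown, and a region without a peak may have missed the peak caller's threshold. The cKO list covered 20.7 Mb and the WT list 36.0 Mb. The Treg and CD4 T cell markers Foxp3, Il2ra, Ctla4, Ikzf2, Cd4 and Cd3e had a peak in each library, with 16 cKO and 24 WT peaks among them. Of 16 markers of B, myeloid, CD8 T or NK and endothelial cells, 5 had a cKO peak and 6 a WT peak. Pecam1 had 5 cKO and 7 WT peaks, Klrb1c 2 and 4, Cd8b1 1 and 1, and Cd79a 1 and 1, while Lyz2 had 1 in cKO and 0 in WT, and Erg and Spi1 0 in cKO and 1 each in WT. Ms4a1, Pax5, Csf1r, Itgam, Cd8a, Ncr1, Cdh5 and Kdr were among those with none in either. The part of other cell types in the results was not tested. In a bulk library, fewer cells with an open region and less opening per cell cannot be told apart.

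All 26 cKO peaks of the ETS genes lay over a WT peak, and all 12 WT peaks within 1 kb of a start site had a cKO partner. A partner here is a peak of the other list that overlaps by at least 1 bp. At the second Elf2 start the overlap was 309 bp of a WT peak of 648 bp. The 16 WT peaks with no cKO partner lay elsewhere, namely 8 in introns, 5 in distal intergenic sequence, 1 at 2 to 3 kb from a start site, 1 in a 3' UTR and 1 downstream of a gene. Start sites and classes are those of the deposited lists, and the distal peaks under Ets1 lie inside the longer RefSeq span of that gene. Each of the 9 genes with peaks had a promoter peak called in the knockout by the starts of the lists. Their products range from activators (Ets1, Elf1) to repressors (Etv6, Elk3). No cKO peak covered the RefSeq start of Ets1, Fli1 or Elk3 or the outer one of Elf4, while WT peaks covered those of Ets1 and Elf4.

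In numbers, 26 of the 42 WT peaks of these genes had a cKO partner (61.9%, Wilson 95% interval 46.8 to 75.0), against 56.1% of all 34440 WT peaks, so the share of the ETS genes lay within counting error of the background. On the cKO side the 26 of 26 (100%, 87.1 to 100) stood beside 97.6% of all cKO peaks. Within 1 kb of a start site the 12 of 12 (100%, 75.8 to 100) stood beside 79.8% of all such WT peaks. At the level of genes, 81.5% of the 12358 genes with a WT peak in this class had it overlapped in the knockout. Away from those promoters 14 of 30 ETS peaks were shared (46.7%, 30.2 to 63.9), beside 41.5% of all peaks there. The intronic peaks were shared at 9 of 17, beside a background of 39.8%, and the distal intergenic ones at 1 of 6, beside 42.9%. The interval of the distal peaks was 3.01 to 56.4. These intervals cover counting error only, and each background share of peaks given here fell inside the interval of the ETS peaks.

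**Figure D1:**
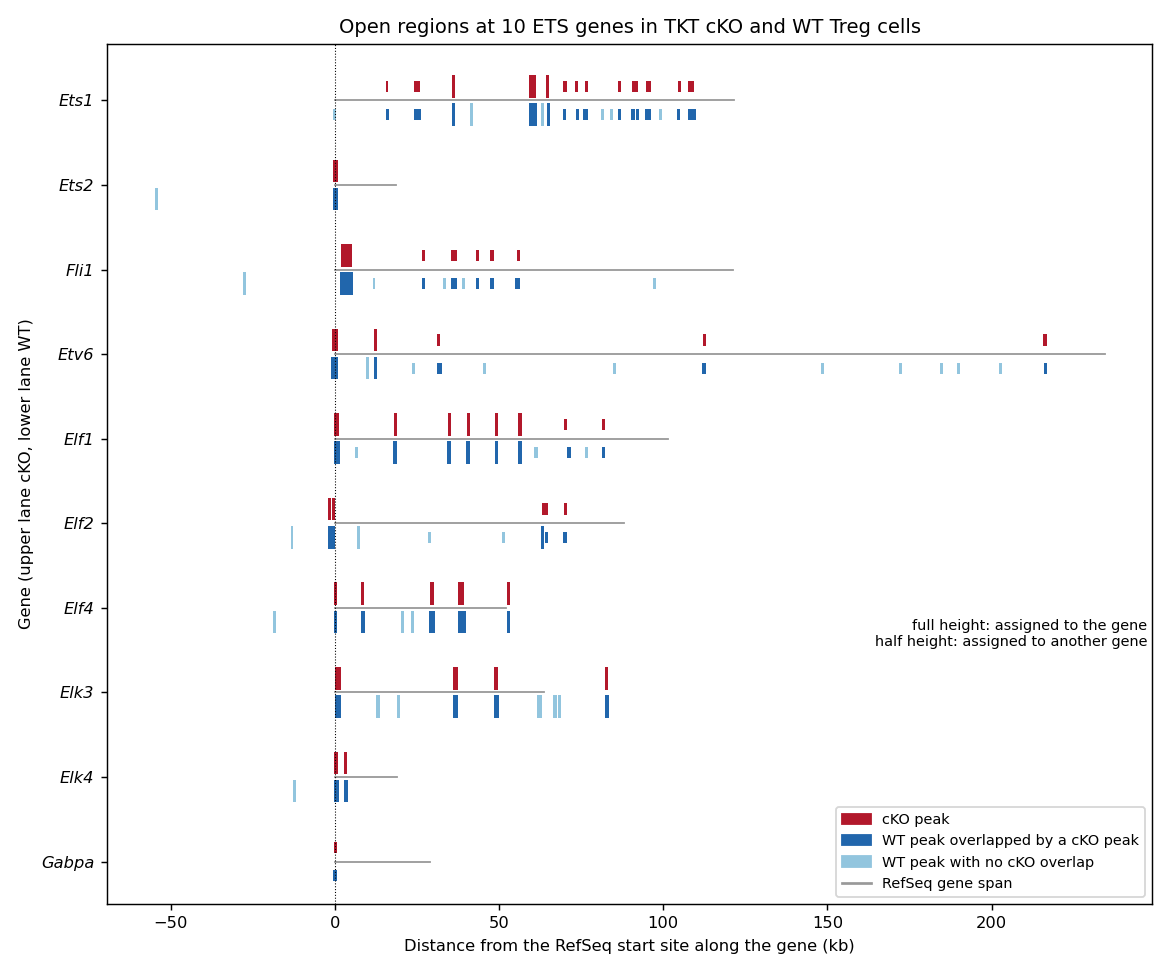
Called peaks at the 10 ETS genes, drawn by distance in kb from the RefSeq start site along each gene, with the cKO library in the upper lane and the WT library in the lower lane of each gene. Dark blue WT peaks have a cKO partner and light blue ones have none. Half-height peaks lie over the gene but are assigned to another one. Peaks are drawn at least 0.9 kb wide. Every full-height WT promoter peak has a cKO partner, at the second Elf2 start a half-height one, the 16 light blue full-height peaks lie away from them, and a half-height WT peak at the RefSeq start of Ets1 has no partner.

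The promoter windows of the ETS genes differed in sequence. RefSeq (build GRCm38.p6, the assembly behind mm10) gives 13 windows of 250 bases before to 50 after a start site for 8 of the 10 genes. No window was available for Ets1 and Fli1. Elf1, Elf2, Elf4 and Elk4 have more than 1 window each, and 2 of those of Elk4 overlap, so the windows are not independent. Their GC content ran between 44.7% and 78.7% with a median of 68.3%, against a median of 52.7% over all 32851 windows. The ETS core GGAA, searched on both strands, occurred between 1 and 8 times in each of the 13 windows, and 96.0% of all windows hold it. The longer site CCGGAAGT, which contains the core, was found on either strand in 1 of the 13, beside 3.89% of all windows. These matches describe letters and not bound sites. The 5 windows below were chosen to show the gene with the highest ranking peak under an ETS symbol and the only long match. The others show the promoter hidden under a neighbour's symbol and 2 of the start sites at which the peak edges of the libraries differ. All 5 are printed along the gene's strand, with GGAA or its complement TTCC, and the long match, in capitals.
Ets2 (chr16:95702157-95702456, plus strand): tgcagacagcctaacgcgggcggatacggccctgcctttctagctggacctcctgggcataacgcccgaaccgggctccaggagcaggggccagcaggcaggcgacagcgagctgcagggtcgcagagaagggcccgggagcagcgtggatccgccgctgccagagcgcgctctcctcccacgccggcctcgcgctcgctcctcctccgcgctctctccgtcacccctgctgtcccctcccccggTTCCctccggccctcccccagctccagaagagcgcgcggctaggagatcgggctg
Elk4 (chr1:132007370-132007669, plus strand): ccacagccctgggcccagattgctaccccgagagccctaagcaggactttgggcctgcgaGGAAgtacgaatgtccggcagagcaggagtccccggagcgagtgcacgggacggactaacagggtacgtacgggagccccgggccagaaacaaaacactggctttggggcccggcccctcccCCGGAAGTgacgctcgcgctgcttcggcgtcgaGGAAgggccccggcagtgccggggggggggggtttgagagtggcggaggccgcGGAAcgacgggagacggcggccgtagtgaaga
Gabpa (chr16:84834874-84835173, plus strand): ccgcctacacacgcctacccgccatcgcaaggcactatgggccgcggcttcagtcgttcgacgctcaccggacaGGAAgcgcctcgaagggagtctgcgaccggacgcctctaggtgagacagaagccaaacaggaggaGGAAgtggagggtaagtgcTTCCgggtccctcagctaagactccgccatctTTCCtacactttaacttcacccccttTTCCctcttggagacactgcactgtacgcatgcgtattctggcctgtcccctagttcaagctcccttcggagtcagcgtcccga
Elf2, second start site (chr3:51277465-51277764, minus strand): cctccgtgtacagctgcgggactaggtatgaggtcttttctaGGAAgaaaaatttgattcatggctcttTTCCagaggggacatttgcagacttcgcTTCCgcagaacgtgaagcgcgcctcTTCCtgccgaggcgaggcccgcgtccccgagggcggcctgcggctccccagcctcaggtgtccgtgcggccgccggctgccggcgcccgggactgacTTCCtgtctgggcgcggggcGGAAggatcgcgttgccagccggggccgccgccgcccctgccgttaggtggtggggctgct
Elf4, outer start site (chrX:48463083-48463382, minus strand): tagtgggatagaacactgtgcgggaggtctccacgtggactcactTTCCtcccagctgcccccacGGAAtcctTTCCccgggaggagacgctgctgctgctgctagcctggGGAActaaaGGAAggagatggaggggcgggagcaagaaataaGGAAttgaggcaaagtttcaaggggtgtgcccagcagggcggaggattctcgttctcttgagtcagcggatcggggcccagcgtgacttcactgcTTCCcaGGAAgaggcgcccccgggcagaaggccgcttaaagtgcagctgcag

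Peaks called in both libraries covered the printed Ets2, Elk4 and Gabpa windows over all 300 bases. In Elk4 the long match begins 68 bases before the start site, at bases 183 to 190 of the window. Over the Elf2 window the cKO peak reached 89 of the 300 bases and the WT peak all 300. Over the outer Elf4 window the cKO peak covered 0 bases, ending just short of it, and the WT peak covered 186. Edges also differed at windows not printed. The main Elf2 window had 256 bases covered in cKO and 171 in WT, and the inner Elf1 window 225 in cKO and 300 in WT.

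Ets1, the founding member, had its promoter and a distal upstream peak called in both libraries, and the unshared WT peaks were among its 3 weakest. In RefSeq the gene begins at 32636241, well before the start used in the lists, at which the promoter peak lies. A WT peak over the RefSeq start, from 32635793 to 32636317 at percentile 13.1, was assigned to the predicted gene Gm27163 and had no cKO partner. The promoter peak on chromosome 9 ran from 32695391 to 32697570 in cKO and from 32695386 to 32697816 in WT. Its score, which the peak lists give without a stated meaning, stood at percentile 81.7 of the cKO list and 76.7 of the WT list. Percentiles are positions within 1 list, and since the lists differ in length they show no change between libraries. A distal peak lay 23247 bp upstream of the start used in the lists in cKO and 23154 bp upstream in WT. It stood at percentile 27.6 in cKO and 63.9 in WT. This peak lies inside the RefSeq span of Ets1, so its distal intergenic class follows the gene model of the lists. An intron 1 peak, 4405 bp from the start in cKO and 4754 bp in WT, overlapped by only 183 bp. It ranked near the foot of both lists, at percentile 0.6 in cKO and 8.5 in WT, where 6.68% of all WT peaks of its score bin were shared. The WT peaks 17742 bp upstream and 2953 bp downstream of a start site, at percentiles 10.6 and 7.3, had no cKO partner. The upstream one also lies inside the RefSeq span.

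Ets2, a close paralogue of Ets1 that responds to ERK signalling, had the highest ranking peak of those that carry an ETS symbol. It ran from 95701865 to 95703306 on chromosome 16 in cKO, ranking 951 of 19680, and from 95701848 to 95703366 in WT, ranking 889 of 34440. The other WT peak of Ets2, 466 bp wide and 53815 bp upstream, was without a partner.

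Fli1, a factor of blood and endothelial cells and the chromosomal neighbour of Ets1, showed the broadest promoter peak. The peak was 3538 bp wide in cKO, from 32538037 to 32541574 on chromosome 9, and 3965 bp wide in WT, from 32537998 to 32541962. It lies at the start used in the lists. The RefSeq start is further upstream, 1.858 kb before the cKO peak and 1.47 kb before the WT peak. Breadth did not go with a high score, as the percentile was 59.8 in cKO and 55.2 in WT. A WT peak 29022 bp upstream, in score bin 4 where 32.0% of all WT peaks were shared, had no cKO partner.

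Etv6, a repressor that is needed by blood stem cells and is disrupted in human leukaemias, shared 2 of 3 WT peaks. Its promoter peak on chromosome 6 stood at percentile 77.7 in cKO, from 134034786 to 134036639, and 79.9 in WT, from 134034636 to 134036809. The shared intron 1 peak lay 12172 bp from the start in cKO and 12087 bp in WT, at percentiles 17.5 in cKO and 43.4 in WT. The remaining WT peak of intron 1, at percentile 7.3, lay 9735 bp from the start and had no partner. Among the 1612 genes with 3 WT peaks the median number shared was 2.

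Elf1, the founder of the ELF group and a lymphoid activator, was the member whose assigned WT peaks were all shared. It had 6 peaks in cKO and 6 in WT, each lying over its counterpart. Among the 211 genes with 6 WT peaks, 2 had every peak shared (0.948%), and Elf1 was singled out here after its values were seen. The peaks marked 2 start sites and 4 intronic regions.
The outer start site, at 79480849 to 79482466 on chromosome 14 in cKO and 79480871 to 79482701 in WT, ranked at percentile 65.7 in cKO and 74.4 in WT. The inner start site, at 79515499 to 79516447 in cKO and 79515266 to 79516535 in WT, ranked at percentile 64.0 in cKO and 85.9 in WT. Both start sites were thus above the median of each list. Of the intronic peaks, the strongest in both libraries lay in intron 1, 14219 bp from the nearest start in cKO and 14197 bp in WT, at percentile 71.5 in cKO and 80.6 in WT. Another intron 1 peak, 15668 bp before the inner start in cKO and 15631 bp before it in WT, stood at percentile 53.4 in cKO and 70.5 in WT. The intron 2 peak stood at percentile 60.8 in cKO and 67.1 in WT. The weakest in both lists, also in intron 1, was 577 bp wide in cKO and 1278 bp in WT, at percentile 14.6 in cKO and 48.7 in WT. The WT peaks of Elf1 all lay in score bins 5 to 9 of 10, where between 47.0% and 98.8% of all WT peaks were shared.

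Elf2, a widely expressed ELF factor with several start sites, was the only member at which peaks carrying its symbol did not pair 1 to 1 between the libraries. At the main promoter on chromosome 3 the cKO library had 2 narrow peaks, 632 and 633 bp wide, from 51340639 to 51341270 and from 51341885 to 51342517, at percentiles 36.1 and 15.8. The WT library had 1 peak of 2010 bp there, from 51340724 to 51342733, at percentile 52.8. Such a split was uncommon, since 65 of all 34440 WT peaks (0.189%) met 2 or more cKO peaks. At the second start site the reverse was seen. A single cKO peak of 1702 bp, from 51275852 to 51277553, was assigned to the neighbouring gene 4930577N17Rik and stood at percentile 88.0. In WT it met a peak of 761 bp with the same start, also assigned to 4930577N17Rik and at percentile 91.9, and a separate Elf2 peak of 648 bp from 51277245 to 51277892 at percentile 39.4. A partner under another symbol was seen for 0.828% of all shared WT peaks. Without a partner were a WT peak in intron 1, 6820 bp from a start, and a distal one of 386 bp, 12841 bp upstream. The intron 1 peak, from 51332975 to 51333824, was the strongest unshared peak of the 10 genes, at percentile 53.4. Its score bin was shared at 63.3% in the list as a whole.

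Elf4, which in mice restrains the proliferation of CD8 T cells, shared 5 of 8 WT peaks on the X chromosome. Each library had a peak assigned to each of its 2 start sites, although the cKO peak at the outer one ended 54 bp from the start. The inner promoter stood at percentile 34.6 in cKO, from 48454214 to 48455173, and at 76.2 in WT, from 48453998 to 48455190. The outer promoter was weaker in each list, at percentile 6.9 in cKO, from 48462464 to 48463078, and 45.9 in WT, from 48462426 to 48463268. Further shared peaks lay in intron 1, over a 5' UTR exon and just beyond the 3' end of the gene, at percentiles between 41.8 and 47.9 in cKO and between 63.0 and 70.1 in WT. The 3 WT peaks without a partner were intronic, and 1 of them lay in intron 12 of the neighbouring gene Aifm1. They stood at percentiles 5.8, 18.6 and 40.6, all below the 5 shared ones. Among the 85 genes with 8 WT peaks the median number shared was 4.

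Elk3, a ternary complex factor that represses with SRF until phosphorylated, had the most WT peaks of the family and the most unshared ones. It had 4 cKO and 9 WT peaks, and 4 of the 9 WT peaks had a partner. Among the 41 genes with 9 WT peaks the median number shared was 5. The promoter peak on chromosome 10 ran from 93309227 to 93311026 in cKO, at percentile 64.1, and from 93309121 to 93311042 in WT, at percentile 72.1. It spans the start used in the lists and covers 0 bases of the RefSeq window, which lies further upstream. The intron 2 peak ranked higher than the promoter in each list, at percentile 80.1 in cKO, from 93273790 to 93275057, and 79.5 in WT, from 93273573 to 93275286. The intron 3 peak stood at percentile 25.7 in cKO and 46.0 in WT. The remaining shared peak lay in exon 10 of Cdk17, 56142 bp from the Elk3 start in cKO and 56095 bp in WT, so its link to Elk3 rests on the nearest-gene assignment alone. Each of the 5 unshared WT peaks, spread over intron 1, the 3' UTR and the sequence beyond the gene, stood between percentiles 19.2 and 36.7.

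Elk4, a ternary complex factor with a role in thymocyte selection in mice, shared 2 of 3 WT peaks. The promoter peak on chromosome 1 stood at percentile 74.7 in cKO, from 132007328 to 132008694, and 79.4 in WT, from 132007248 to 132008752. A peak 2694 bp from the start in cKO and 2572 bp in WT was 592 bp wide in cKO and 1079 bp in WT. The unshared WT peak, at percentile 33.4, lay 11975 bp upstream in an intron of the predicted gene Gm29103. Genes with 3 WT peaks had a median of 2 shared.

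Gabpa, the DNA-binding subunit of GABP and a regulator of Il7r and of mitochondrial genes, had no peak under its own symbol, yet its promoter was open in both libraries. A peak from 84834582 to 84835656 on chromosome 16 in cKO and from 84834380 to 84835616 in WT covered the whole Gabpa window printed above. The annotation assigned it to Atp5j, a subunit gene of the mitochondrial ATP synthase whose start site it also spans. It stood at percentile 95.2 in cKO and 94.5 in WT, close to the Ets2 promoter at 95.2 in cKO and 97.4 in WT.

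The same assignment step moved many peaks inside the other genes. Over the RefSeq spans of the 10 genes, each extended by 1 kb before its start, lay 46 cKO and 78 WT peaks, of which 23 cKO and 45 WT peaks were assigned to other genes. Predicted or Rik-numbered models took 22 of those 23 and 43 of those 45. With these spans in place of the symbols, a choice made after the data were seen, 48 of 78 WT peaks were overlapped in cKO (61.5%, 50.4 to 71.6) and all 46 cKO peaks had a WT partner. The share was therefore close to the 61.9% by symbol, whereas the genes with most peaks differed. Ets1 led with 13 cKO and 20 WT peaks over its span, which in RefSeq begins upstream of the start used in the lists, and 14 of the 20 were shared. Of these peaks, 10 in cKO and 15 in WT carried the symbols Gm27163 or Gm27240. The strongest of these in the cKO list lay in intron 3 of Ets1, from 32730874 to 32732564, at percentile 74.4 in cKO and, from 32730807 to 32732593, at 72.6 in WT.

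Etv6 had more unshared than shared WT peaks by this count. It had 5 cKO and 14 WT peaks over its span of 234.5 kb, and 9 of the 14 were unshared, beside 15127 of all 34440 WT peaks. These 9 stood between percentiles 0.0 and 50.1 of the WT list, in score bins where 6.68% to 63.3% of all WT peaks were shared. The 5 shared ones stood between percentiles 14.3 and 79.9. Fli1 had 6 cKO and 10 WT peaks, with 6 of the 10 shared, among them a peak inside Fli1 at the start of the predicted gene Gm27201, at percentile 76.7 in cKO and 84.4 in WT. Elf1, with every peak shared under its own symbol, had 8 cKO and 11 WT peaks over its span, of which 8 WT peaks were shared. The 3 unshared ones were assigned to Wbp4 and Gm27857. Across the 335.6 kb of chromosome 9 that hold Fli1 and Ets1, head to head and 92.8 kb apart, there were 21 cKO and 36 WT peaks, and 22 of the 36 were shared (61.1%). Only 4 of those cKO and 7 of those WT peaks bore either symbol.

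**Figure D2:**
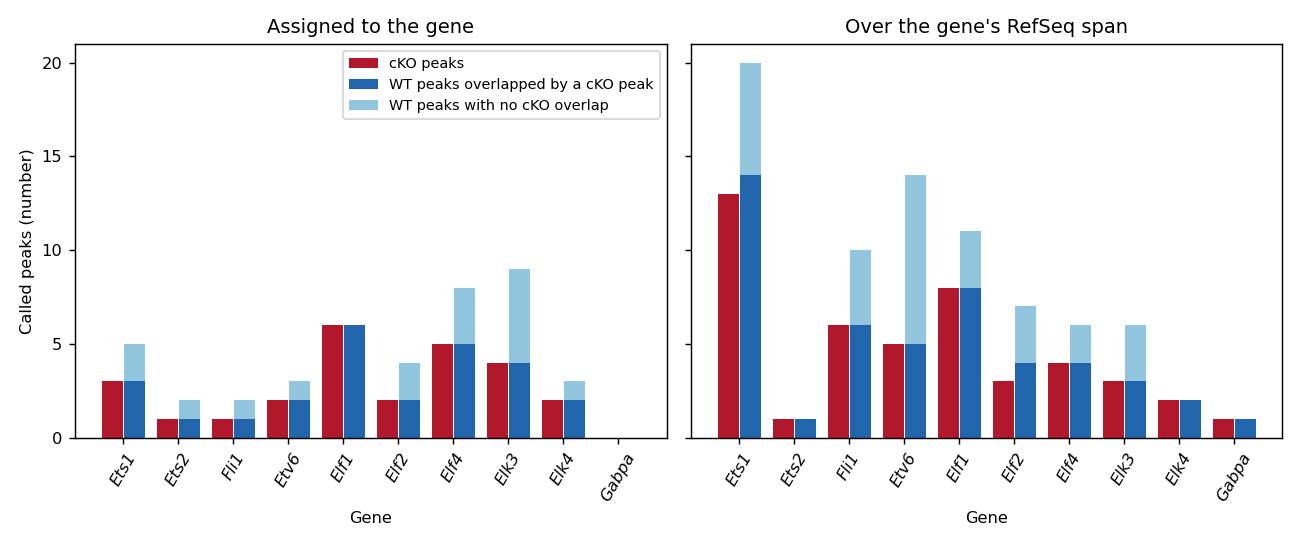
Number of called peaks per ETS gene, left by assigned symbol and right by RefSeq span extended by 1 kb before the start, with cKO bars left of WT bars. Dark and light blue divide WT peaks with and without a cKO partner. By symbol Elk3 has the tallest WT bar (9) and by span Ets1 has (20).

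Sharing in the ETS genes went with peak score. The 26 shared WT peaks stood at a median percentile of 70.3 within the WT list, and the 16 unshared ones at 30.6. Over all WT peaks these medians were 71.4 and 25.1. In score bins 7 to 10 all 18 ETS peaks were shared (82.4 to 100), beside 94.2% of all WT peaks. In bins 4 to 6 it was 7 of 15 (46.7%), beside 47.5%, and in bins 1 to 3 it was 1 of 9 (11.1%), beside 13.9%. In each of these 3 ranges the background lay within the interval of the ETS peaks. The only shared peak of the lowest range was the Ets1 intron 1 peak described above.

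**Figure D3:**
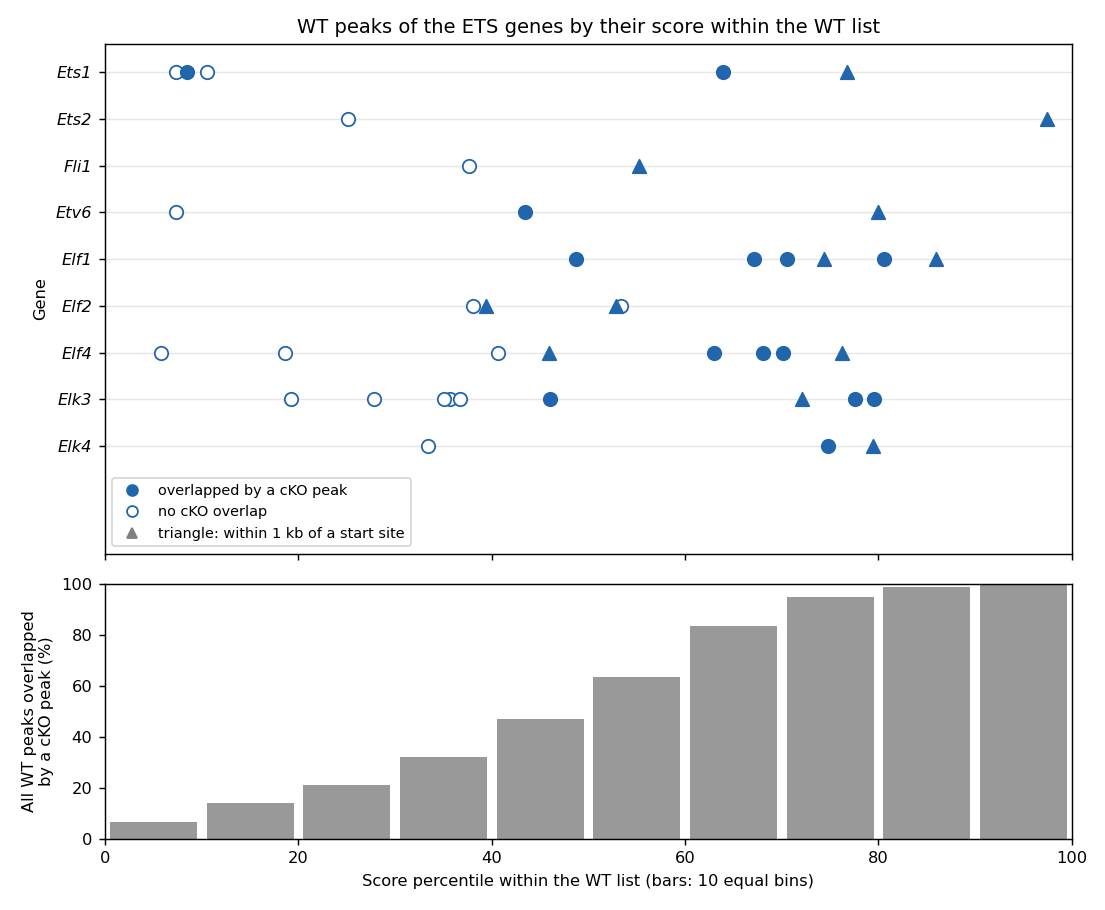
Upper panel, score percentile within the WT list of each WT peak of 9 ETS genes, filled where a cKO peak overlaps it and as a triangle within 1 kb of a start site. Lower panel, share in percent of all WT peaks that a cKO peak overlaps, in 10 equal score bins. Filled symbols predominate to the right, where the bars reach 83.7% to 99.5%, and the rightmost open symbol is Elf2 at percentile 53.4.

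Widths gave the same division. Shared WT peaks of the ETS genes had a median width of 1274 bp and unshared ones 636 bp, beside 1213 and 662 bp over all WT peaks. Of the 16 unshared peaks, 3 were narrower than 465 bp, the narrowest peak of the cKO list. Where a single cKO peak met a single WT peak, the cKO peak was the narrower in 22 of 24 ETS pairs (91.7%), beside 85.3% of 18926 pairs in all. The median cKO to WT width ratio was 0.84 in the ETS pairs and 0.84 in all pairs. The lowest ratio was 0.45, at the Elf1 intron 1 peak, and the highest 1.09, at the distal Ets1 peak. In 19 of the 24 pairs the cKO peak lay wholly inside its WT counterpart (79.2%), beside 65.9% of all pairs. Scores and widths both move with sequencing depth, whose part in these values was not tested.

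**Figure D4:**
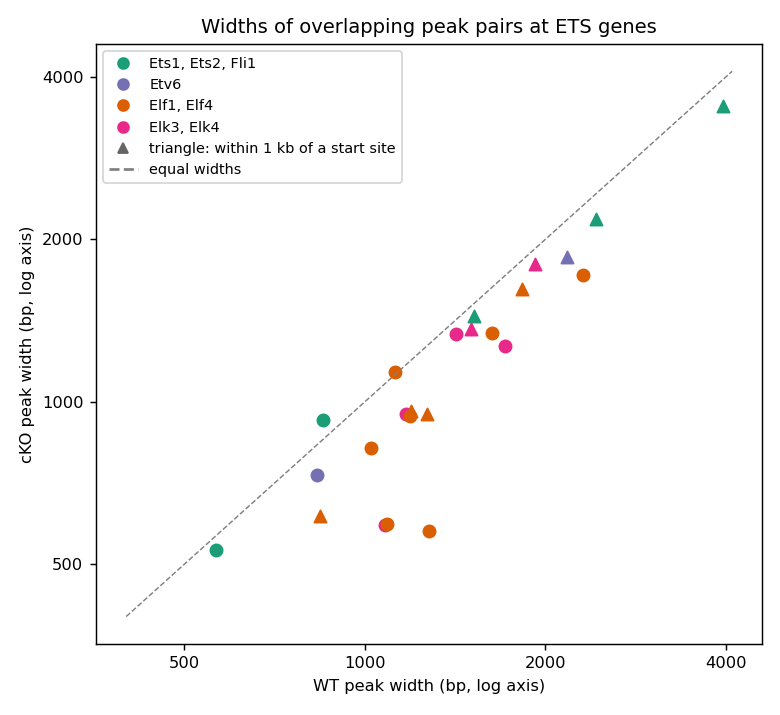
Width in bp of the cKO peak against the WT peak on log axes for the 24 pairs of the ETS genes in which 1 peak met 1 peak, with triangles for pairs within 1 kb of a start site. The dashed line marks equal widths. All pairs except 2 lie below it, and the widest pair is the Fli1 promoter.

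By annotation class, introns held 9 of 26 ETS peaks in cKO (34.6%, Wilson 95% interval 19.4 to 53.8) and 17 of 42 in WT (40.5%, 27.0 to 55.5), beside 19.7% of all cKO and 26.3% of all WT peaks. The cKO interval holds its background, and the WT interval begins just above its own. The intervals treat the peaks as independent although they come from 9 genes, and this difference was not tested. Start sites within 1 kb held 42.3% (25.5 to 61.1) of the ETS peaks in cKO and 28.6% (17.2 to 43.6) in WT. The backgrounds were 52.7% of all cKO and 38.1% of all WT peaks. A single ETS peak in cKO (3.85%, 0.682 to 18.9) and 6 in WT (14.3%, 6.72 to 27.8) were classed as distal intergenic. The backgrounds were 16.3% of all cKO and 20.6% of all WT peaks. The cKO peak, assigned to Ets1, lies inside the longer RefSeq span of that gene. For start sites and for distal sequence, each background share lay within the interval of the ETS peaks.

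Another 16 ETS genes were examined in the same way. A cKO peak was assigned to 7 of them and a WT peak to 10, and 11 of their 18 WT peaks were shared (61.1%, 38.6 to 79.7), beside 56.1% of all WT peaks. Etv3, a repressor of cell proliferation, shared 5 of 6, beside a median of 3 over the 211 genes with 6 WT peaks. Etv5, an activator close to Etv1 and Etv4, shared 1 of 4, which was its promoter at percentile 92.3 of the WT list. The median over the 762 genes with 4 WT peaks was 2. Erg, of blood stem and endothelial cells, Etv2, of early endothelium, and Spi1, which directs myeloid and B cell fates, had 1 WT peak each and none in cKO. These peaks stood at percentiles 37.6 for Erg, 24.6 for Etv2 and 60.4 for Spi1, in score bins where 32.0%, 21.1% and 83.7% of all WT peaks were shared. Fev, Elf5, Ehf, Spdef, Spib and Spic had no peak in either library.

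Partners of ETS factors, and of their partner SRF, were examined next. Of 14 partner genes, 11 had a cKO peak and 12 a WT peak, and 25 of 42 WT peaks were shared (59.5%, 44.5 to 73.0), beside the same 56.1%. Runx1 and Runx3, which bind beside ETS factors, shared 7 of 11 and 4 of 8. Mkl1, the SRF coactivator MRTF-A, shared 3 of 4, and Gabpb1, a partner subunit of Gabpa, 2 of 3. Mapk3, encoding the kinase ERK1, had 2 WT peaks, at percentiles up to 51.5, and no cKO peak. Of the 4039 genes with 2 WT peaks, 22.0% had none shared. No peak bore the symbols Ep300 or Sin3a.

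Genes described as ETS targets in T cells shared 30 of 38 WT peaks (78.9%, 63.7 to 88.9), beside the 56.1% of all WT peaks. Each of 9 target genes had peaks in both libraries, and Cd3g had none in either. Klf2, a quiescence and homing factor, shared 7 of 8, Il7r, the IL-7 receptor chain regulated by GABP, 5 of 7, and Il2ra 4 of 6. Lck, the proximal T cell receptor kinase, shared 3 of 5, Bcl2 3 of 3 and Il2rb 2 of 3. Above the median score of each list the share was 50.0% (11 of 22), beside 57.0% of all peaks, and with the WT list reduced to the length of the cKO list it was 82.1% (23 of 28), beside 83.0%.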

How the data were processed

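ATAC-seq peak lists of 1 TKT cKO and 1 WT Treg library were used. Per the submitters' processing notes, the authors used Trimmomatic, FastQC, BWA and MACS2 with mm10. Versions, caller settings, any Tn5 read shift and annotation software, not given in the sources used here, could change which peaks exist. A list belongs to 1 library, so calling was per library. The score deposited by the authors is not explained by the file headers and served only for ranks and 10 equal bins within a list. Widths and distances in bp are other values deposited by the authors, per the file headers.

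Overlaps of at least 1 bp were computed in Python 3.11.15 with pandas 2.3.3, tested on simulated data and compared with bedtools 2.31.1, with 0 differences in either list. Intervals are Wilson 95% intervals from scipy 1.17.1 and cover counting error only. RefSeq spans and promoter windows are from GRCm38.p6, and of 15292 symbols matched, 94.5% had a gene end within 1 kb. Named genes were all members, and of the other lists those with no cKO peak and at least 1 WT peak or with at least 3 WT peaks. Others were named after their values were seen. Some genes of the lists are not reported here by name. Members and lists were chosen with earlier results of these data known. Groups follow the genotype labels. Depth is unknown and no test was run. Alternatives were a stricter overlap, higher scores, equal list lengths, wider WT peaks, distance and assignment.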

Additional observations from a re-analysis of the deposited data

How the results depend on the processing

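No paired analysis was possible because each genotype has 1 library, and for the same reason no replicate could be left out. With the WT list reduced to its strongest 19680 peaks, as many as the cKO list has, the ETS genes had 25 WT peaks. The overlapped share of the WT peaks was then 96.0% (24 of 25, 80.5 to 99.3) for the ETS genes and 83.0% for all peaks, which lies inside that interval. It was 81.8% for the other ETS genes, 85.2% for the partners and 82.1% (23 of 28) for the targets. Above the median score of each list, the share was 50.0% for the targets and 57.0% for all peaks, and the ETS genes had 13 cKO and 21 WT peaks. For all peaks the share was 55.5% with overlap over 50% of the shorter peak and 60.9% among WT peaks at least as wide as the narrowest cKO peak. Within 10 kb of the assigned start the ETS genes had 16 cKO and 20 WT peaks, and over RefSeq spans, an alternative chosen after seeing the data, 46 cKO and 78 WT peaks. The share of the ETS genes stayed within its interval under the other 4 alternatives, between 57.1% and 66.7%. With overlap over 50% of the shorter peak, 24 of 42 WT and 25 of 26 cKO peaks of the ETS genes were shared. The WT peak at the second Elf2 start, with an overlap of 309 bp, and the Ets1 intron 1 peak, with 183 bp, then had no partner. Depth, which is unknown, limits every statement that a peak is missing.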
